A study of Rattus norvegicus with 6 samples.

Results

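The genes of the superoxide dismutases Sod1 and Sod2 and of catalase (Cat) were examined in rat tenocytes with and without interleukin-1β (IL-1β). They were taken from the deposited expression table by their rat Ensembl identifiers, ENSRNOG00000002115 for Sod1, ENSRNOG00000019048 for Sod2 and ENSRNOG00000008364 for Cat. All 3 were present among the 19133 genes of the table, and all 3 passed the filter on low values. Tenocytes, the resident fibroblast-like cells of tendon, were isolated from the Achilles tendons of Sprague–Dawley rats and grown as primary cultures. The control group (n = 3 libraries) received complete medium, and the IL-1β group (n = 3 libraries) received the same medium with 50 ng/mL of IL-1β, a cytokine of acute inflammation, for 24 h. The labels name no genetic change in either group. The number of animals behind the cultures is not given in the sources used here, so the p-values measure the spread between these libraries, which may be partly technical. The identifiers were not paired with symbols here beyond these 3 genes, so the tenocyte label was not checked against marker genes, and the lists of other redox genes were not examined. The libraries hold RNA of whole cultures, in which fewer cells of a type and less RNA per cell cannot be told apart.

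Superoxide is formed when an electron leaks to molecular oxygen, mostly at the mitochondrial respiratory chain and at NADPH oxidases. Superoxide dismutases convert it to hydrogen peroxide and oxygen. Sod1, the copper- and zinc-containing enzyme, works in the cytosol and the intermembrane space of mitochondria, and Sod2, the manganese enzyme, works in the mitochondrial matrix. Catalase, a heme enzyme of peroxisomes, breaks the hydrogen peroxide down to water and oxygen. Sod2 is known in many cell types as a gene that inflammatory cytokines induce, whereas Sod1 is commonly described as constitutively expressed. In tendon, oxidative stress is studied as a companion of inflammation and matrix breakdown.

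Only Sod2 changed past both thresholds with IL-1β. Its mean level rose from 44.8 ± 2.03 to 517 ± 22.9 FPKM (SD, n = 3 each), about 11.5 times the control mean. Sod1, the most abundant of the 3 transcripts in the control group, showed no detectable change, at 166 ± 14.2 FPKM in the control group and 178 ± 6.83 FPKM with IL-1β. Cat was 25.5 ± 1.23 FPKM in the control group and 32.5 ± 3.93 FPKM with IL-1β, a difference of 27.3% between the means as deposited. The test was run on values scaled between libraries, where the change of Cat was 1.22-fold and did not pass the adjusted threshold. FPKM is a count of fragments divided by the length of the gene and by the depth of the library. The levels of the 3 genes can thus be set side by side as far as the gene lengths used are right. The lengths implied by the values were 656 bases for Sod1, 2063 for Sod2 and 2539 for Cat. In the control libraries 3992 to 4375 reads were recovered for Sod1 and 3487 to 3667 for Sod2. Within each library the order of the genes by reads was the same as by FPKM. The size of the ratios, shares and sums given below rests on these lengths.

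The 250 bases before the start site of each gene are shown as a description. Any bearing of these bases on the change of a gene was not tested. The windows come from RefSeq (GRCr8 build) and were matched by symbol for 3 of 3 genes. The build behind the deposited values is not given in the sources used here. Each window is written 5′ to 3′ on the strand of its gene, and capitals mark the motif matches described next.
Sod1 promoter, chr11:42942573-42942822, plus strand: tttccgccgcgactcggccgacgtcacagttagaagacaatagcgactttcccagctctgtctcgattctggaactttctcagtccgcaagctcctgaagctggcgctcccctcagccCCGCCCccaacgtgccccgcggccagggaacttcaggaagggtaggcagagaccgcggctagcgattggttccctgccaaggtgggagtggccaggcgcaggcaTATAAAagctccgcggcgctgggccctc
Sod2 promoter, chr1:50050169-50050418, minus strand: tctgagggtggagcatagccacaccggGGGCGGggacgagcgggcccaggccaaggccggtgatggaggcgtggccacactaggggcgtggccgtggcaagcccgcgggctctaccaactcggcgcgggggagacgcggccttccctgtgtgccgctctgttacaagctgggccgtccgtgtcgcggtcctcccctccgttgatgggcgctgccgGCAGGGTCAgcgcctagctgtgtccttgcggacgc
Cat promoter, chr3:110329527-110329776, minus strand: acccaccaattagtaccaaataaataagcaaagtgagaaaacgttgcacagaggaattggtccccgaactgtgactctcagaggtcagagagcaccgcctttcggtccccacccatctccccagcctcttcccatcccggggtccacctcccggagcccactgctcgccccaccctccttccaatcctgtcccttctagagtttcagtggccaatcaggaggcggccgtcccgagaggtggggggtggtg

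Of the motifs searched on both strands, the Sod1 window held a TATA box (TATAAA) that began 28 bases before the start site and an Sp1 GC box (GGGCGG, on the minus strand) that began 132 bases before it. The RefSeq record of Sod1 begins upstream of the start site used for this window, so part of the window may be transcribed. The Sod2 window held no TATA box, an Sp1 GC box 223 bases before the start site and, on the minus strand, 1 match to the core of the antioxidant response element (TGACNNNGC) that began 35 bases before it. The Cat window held none of the 5 motifs. No window matched the AP-1 motif (TGANTCA) or the NF-kappaB consensus, and bases outside the windows were not searched. Among 33469 promoter windows of the same length, 12.9% held the TATA box, 30.5% the GC box, 10.1% the antioxidant response element core, 6.34% the AP-1 motif and 6.33% the NF-kappaB consensus. The GC content was 63.2% for Sod1, 71.6% for Sod2 and 58.8% for Cat, against a median of 51.2% over all windows. A match describes letters only, and no binding was measured in these libraries.

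The libraries were of similar depth. Low FPKM values step by the value of 1 read, and from these steps 36507351 to 43099604 reads per library were recovered, and the ranges of the groups overlapped. Both libraries numbered 1 lay apart from the other 4 on the second principal component, with scores of 20.7 and 22.0 against −12.3 to −7.23, and this component carried 8.46% of the variance. For the test, values were scaled between libraries, 0.1 FPKM was added and log2 was taken, and the 12408 genes that reached 0.5 FPKM in 3 or more libraries were fitted together with limma. A gene was called where its adjusted p was below 0.05 and its log2 fold change exceeded 1 in either direction.

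Sod2 stood at 45.8, 46.2 and 42.5 FPKM in control libraries 1, 2 and 3 and at 536, 492 and 522 FPKM in IL-1β libraries 1, 2 and 3. Every IL-1β library lay far above every control library, and the spread within each group was small beside the distance between the groups. The log2 fold change of Sod2 was 3.47 (standard error 0.06, 95% interval 3.33 to 3.60), which corresponds to an 11.0-fold rise with an interval of 10.05 to 12.15 (adjusted p = 8.3e-08). Of the 3 genes 1 was called, beside 8.69% of all tested genes called in either direction and 5.37% called higher (3.32% called lower). Among the tested genes, 99.1% had a lower log2 fold change than Sod2, which ranked 106 among the rises. By the gain in scaled FPKM, 461 for Sod2, it ranked 19 of 12408. The level of Sod2 thereby moved from ranks 1532 to 1653 of the tested genes in the control libraries to ranks 122 to 135 with IL-1β.

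**Figure D1:**
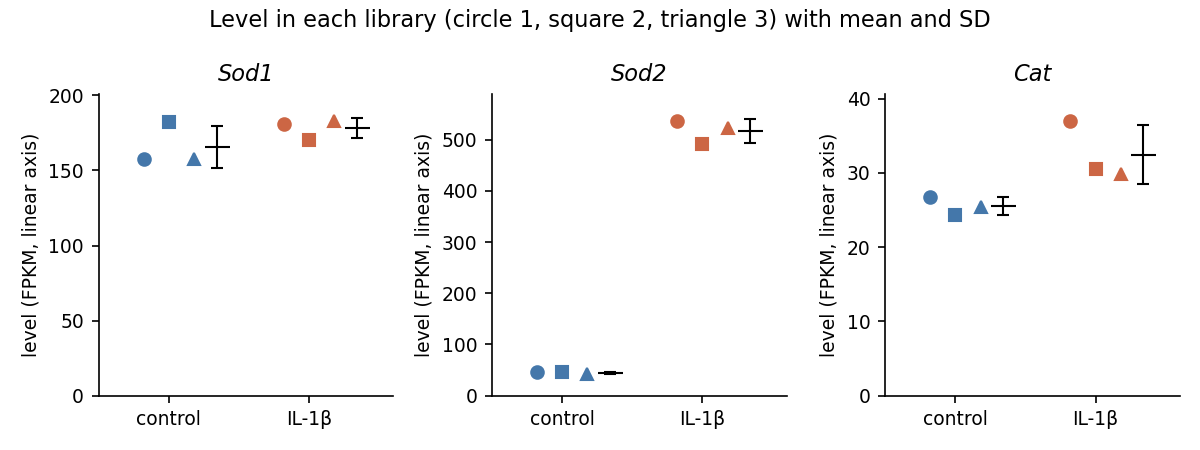
Level of Sod1, Sod2 and Cat in each library in FPKM (linear axes from 0, different scales), with the mean and SD of each group (n = 3). Sod2 lies between 42.5 and 46.2 FPKM in the control group and between 492 and 536 FPKM with IL-1β, the Sod1 groups overlap, and the Cat groups do not overlap but lie close together.

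The reads behind Sod2 were many in both groups. In the control libraries 3487 to 3667 reads were recovered for it, and 39638 to 43832 with IL-1β. Counting error alone would give a spread of 1.65% to 1.69% in the control libraries and 0.478% to 0.502% with IL-1β. The coefficients of variation of the FPKM values were 4.54% and 4.43%, so the variation between libraries exceeded counting error in both groups. Reads are not independent molecules, and these figures cover counting error only. RefSeq lists a Sod2 pseudogene on another chromosome, and reads shared with it were not measured.

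Sod1 stood at 157, 182 and 158 FPKM in control libraries 1, 2 and 3 and at 181, 170.3 and 183 FPKM in IL-1β libraries 1, 2 and 3. The groups overlapped, since by these deposited values control library 2 lay above the first 2 IL-1β libraries. After the scaling used for the test, control library 2 lay above all IL-1β libraries, at 185.1 FPKM against at most 180.3 FPKM. The log2 fold change of Sod1 was 0.05 (standard error 0.07, adjusted p = 0.61), with a 95% interval of −0.11 to 0.21. In linear terms the interval ran from 0.928 to 1.15 times the control level, so a change of Sod1 as large as that of Sod2 lay far outside it. Of the tested genes, 85.6% had a larger absolute change. Between 3992 and 4830 reads were recovered for Sod1 over all 6 libraries. Its level ranked between 380 and 440 among the tested genes in the control libraries and between 385 and 428 with IL-1β.

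Cat stood at 26.8, 24.4 and 25.4 FPKM in control libraries 1, 2 and 3 and at 37.0, 30.6 and 29.9 FPKM in IL-1β libraries 1, 2 and 3. All IL-1β libraries lay above all control libraries, with IL-1β library 1 apart from the other 2. Such separation in either direction was seen in 51.4% of all tested genes, and separation with IL-1β above control in 25.5%. The log2 fold change of Cat was 0.28 (standard error 0.10, 95% interval 0.06 to 0.51), or 1.22-fold, and its adjusted p of 0.054 missed the threshold that 38.4% of the tested genes reached. Without IL-1β library 1 the value was 0.18 (adjusted p = 0.060). With the FPKM values as deposited it was 0.34 (adjusted p = 0.019), and limma-voom, run on recovered reads, gave 0.29 (adjusted p = 0.032), so the call depended on the setting. With both libraries numbered 1 left out, a fit chosen after the data were seen, it was 0.22 (adjusted p = 0.023). Across the 16 alternatives the adjusted p of Cat ranged from 0.019 to 0.15, and the value was positive in each. Between 2266 and 2695 reads were recovered for Cat in the control libraries and between 2796 and 3493 with IL-1β. RefSeq places a pseudogene within the span of Cat, and the counting is not stated to use strand, so a part of these reads may belong to it.

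**Figure D2:**
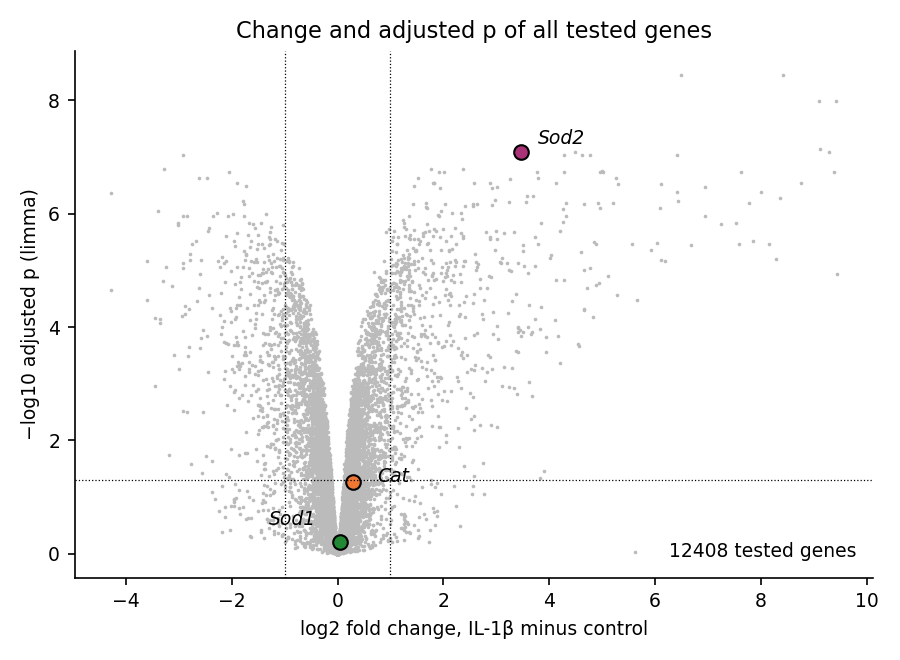
Log2 fold change (IL-1β minus control, x axis) against −log10 of limma's adjusted p (y axis) for 12408 tested genes, with Sod1, Sod2 and Cat marked and dotted lines at the thresholds. Sod2 lies at 3.47, past both thresholds, Cat at 0.28 lies just under the p threshold, and Sod1 lies at 0.05 near the bottom.

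The scaling between libraries mattered little for Sod2 and more for the smaller values. Over all tested genes the log2 fold change had a median of 0.00066 with the scaling used, of 0.06 without scaling of the deposited values and of −0.05 after quantile normalization. The value of Sod2 lay between 3.40 and 3.52 across the 16 alternatives, and its adjusted p was at most 6.7e-06. That of Sod1 lay between −0.0019 and 0.11, and no alternative passed the threshold (adjusted p 0.18 to 0.99).

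**Figure D3:**
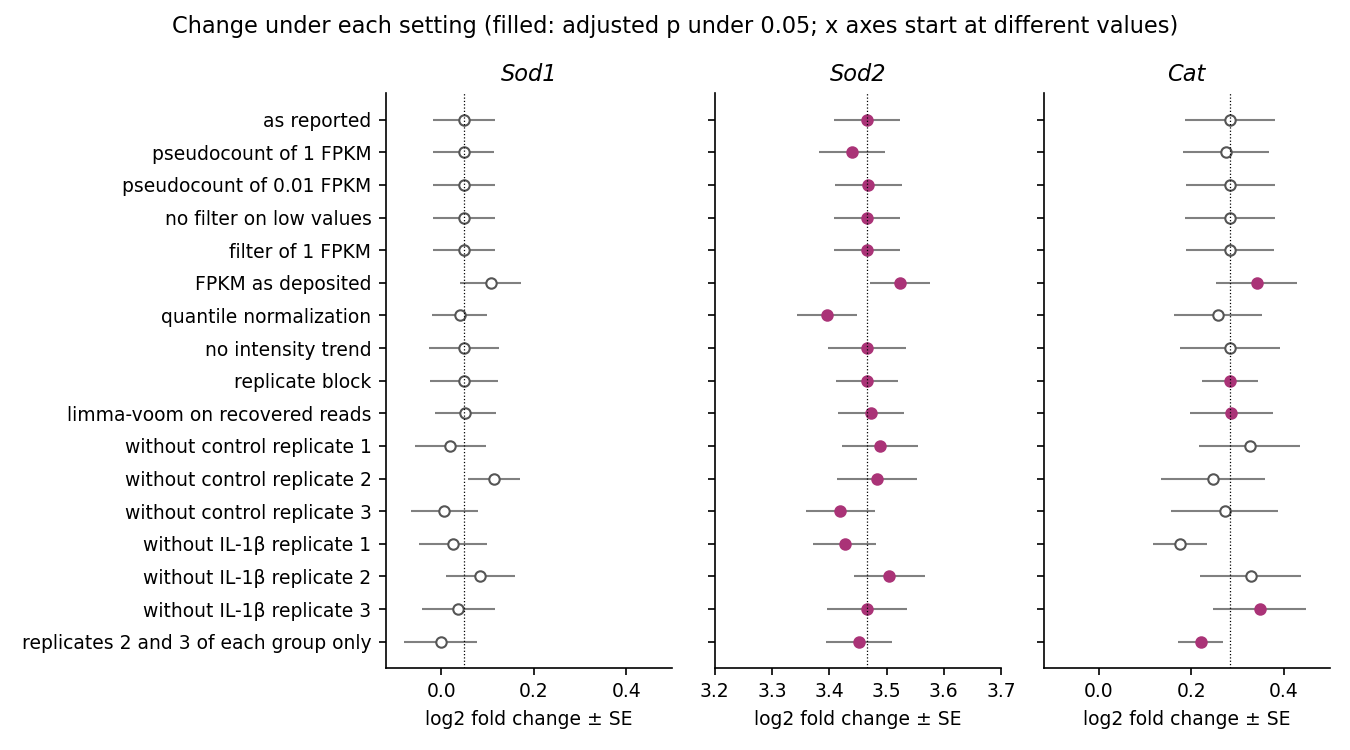
Log2 fold change with its standard error for Sod1, Sod2 and Cat as reported and under 16 alternative settings, with filled points where the adjusted p is under 0.05 (the x axes differ and do not all include 0). Sod2 stays between 3.40 and 3.52 with filled points throughout, Sod1 is open throughout, and Cat changes between open and filled.

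The order of the 3 transcripts changed with IL-1β. In each control library Sod1 was the most abundant, followed by Sod2 and then Cat, and the ranges of the 3 genes did not overlap. In each IL-1β library Sod2 came first, followed by Sod1 and Cat, again without overlap. Ratios within a library do not depend on the scaling between libraries and were used to compare the changes of the genes with each other. Sod2 reached 0.291, 0.253 and 0.269 times the Sod1 level in control libraries 1, 2 and 3 and 2.96, 2.89 and 2.85 times that level in IL-1β libraries 1, 2 and 3. The log2 ratio of Sod2 over Sod1 thus went from −1.88 ± 0.10 to 1.54 ± 0.03 (SD, n = 3 each), a difference of 3.42 (standard error 0.06; exact two-sided permutation p = 0.10). The smallest p that 3 libraries against 3 can give is 0.10, so no ratio could pass a threshold of 0.05, and 3 ratios were tested.

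Sod2 was 1.71, 1.89 and 1.67 times as abundant as Cat in control libraries 1, 2 and 3, and 14.5, 16.1 and 17.4 times in IL-1β libraries 1, 2 and 3. On the log2 scale the ratio of Sod2 over Cat differed by 3.18 between the groups (standard error 0.09; exact permutation p = 0.10, 0.15 after Benjamini-Hochberg adjustment, as for Sod2 over Sod1). Sod1 was 5.87, 7.47 and 6.22 times as abundant as Cat in the control libraries and 4.89, 5.57 and 6.12 times with IL-1β. These ranges overlapped, and the log2 ratio of Sod1 over Cat differed by −0.24 (standard error 0.14; exact permutation p = 0.20, also 0.20 after adjustment). The smallest p this test can give is 0.10, so it could not decide whether the changes of Sod1 and Cat differed.

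**Figure D4:**
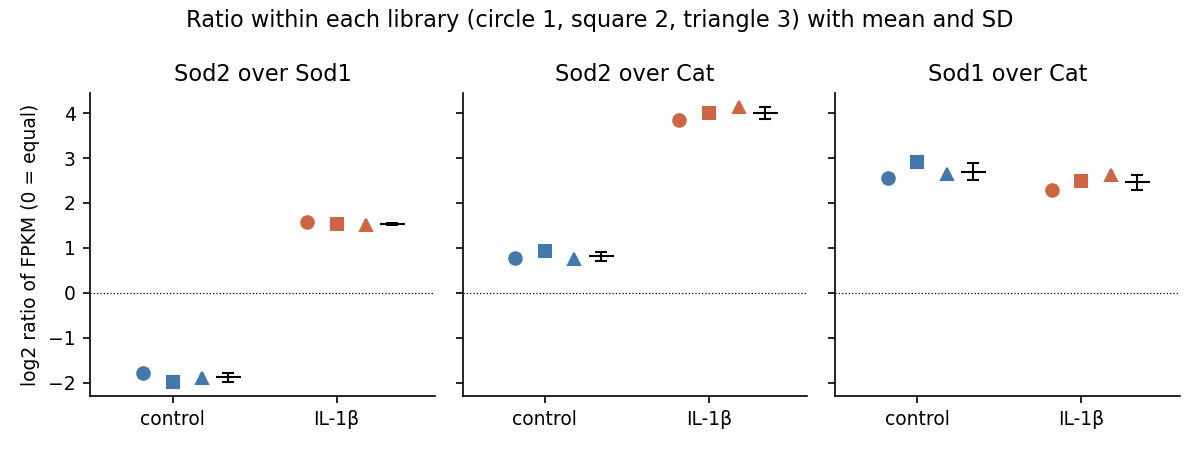
Log2 ratio of FPKM within each library for Sod2 over Sod1, Sod2 over Cat and Sod1 over Cat, with the mean and SD of each group (n = 3) and a dotted line where both genes are equal. Sod2 over Sod1 crosses the line from −1.88 to 1.54, Sod2 over Cat rises on the same scale, and the 2 groups of Sod1 over Cat overlap.

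The sum of the Sod1 and Sod2 levels was 211 ± 15.4 FPKM in the control group and 695 ± 29.2 FPKM with IL-1β (SD, n = 3 each; 3.30 times; exact permutation p = 0.10, the smallest possible). Of this sum, Sod2 made up 20.2% to 22.5% in the control libraries and 74.0% to 74.8% with IL-1β. For each unit of Cat transcript, the Sod1 and Sod2 transcripts together came to 7.58, 9.37 and 7.89 units in control libraries 1, 2 and 3. In IL-1β libraries 1, 2 and 3 they came to 19.4, 21.7 and 23.6 units. No other dismutase gene and no other enzyme that removes hydrogen peroxide was examined. The share of Cat in the summed level of all 3 genes was 10.8% ± 1.06 in the control group and 4.46% ± 0.42 with IL-1β. These are transcript levels, and neither protein nor enzyme activity was measured in these files.

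The patterns most like those of Sod2 and Sod1 were sought among the other 12405 tested genes by the root-mean-square difference of the centred log2 values over the 6 libraries. ENSRNOG00000010797 came nearest to Sod2, at a difference of 0.084 log2 units. It went from 3.41 ± 0.16 to 41.9 ± 0.74 FPKM, a log2 fold change of 3.52, at a level well below that of Sod2. ENSRNOG00000015618 followed at 0.084, from 7.24 ± 0.48 to 86.5 ± 1.42 FPKM with a log2 fold change of 3.50. Nearest to Sod1, the lowest of the 3 changes, were ENSRNOG00000013767, at a difference of 0.021 and with 2.04 ± 0.20 and 2.16 ± 0.08 FPKM, and ENSRNOG00000010007, at 0.024 and with 16.1 ± 1.12 and 17.2 ± 0.29 FPKM (SD, n = 3 each). The files do not pair these identifiers with gene names, and likeness over 6 libraries is a description only.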

How the data were processed

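Polyadenylated RNA of cultured rat tenocytes was sequenced as paired-end libraries, 3 per group. The processing notes name HISAT2 and featureCounts without versions, and the annotation and strand setting are not given in the sources used here. The authors deposited FPKM values for 19133 Ensembl genes, 1 column per library, without pooling. Groups and replicate numbers were taken from the sample labels.

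The steps of low FPKM values were used to recover whole reads (tolerance 0.02 read) in Python 3.11.15 (pandas 2.3.3, numpy 2.4.6). Before whole gene lengths were imposed, the lengths implied for 99.2% of 12810 genes with over 100 reads were whole bases within 0.05 base.

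FPKM values were divided by median-of-ratios size factors (0.969 to 1.03), and converted to log2 after addition of 0.1 FPKM. The genes that reached 0.5 FPKM in 3 or more of the 6 libraries were fitted in R 4.3.3 with limma 3.58.1 (two-sided, intensity trend, no block) and adjusted with the Benjamini-Hochberg method over all tested genes. The added 0.1 FPKM understates changes of low genes. The study itself used DESeq2, which takes read counts and was not repeated. The scripts were also run on simulated data with known changes, in which 12382 genes were tested. Among the genes simulated without a change, 9 passed both thresholds and 13 had a limma adjusted p below 0.05. Of 99 tested genes with a simulated log2 change of 2, 100% passed both thresholds. Of 99 with a change of 0.5, 38.4% had a limma adjusted p below 0.05. These data were made with 200 altered genes and a dispersion of 0.01. A log2 change as small as that of Cat was not tested.

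The members and lists were chosen with earlier results of these data known. The rule for named genes was all 3 members and, for the highest and the lowest change, the 2 genes of most similar pattern. Reference tables paired 0 of 19133 identifiers with a symbol, so the lists of redox genes and cell type markers were not examined. Same-numbered libraries deviated together at correlations of 0.094, 0.021 and 0.034, and differently numbered ones at −0.087 to 0.061. The main fit used no pairing. Figures were drawn with matplotlib 3.10.9.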

Additional observations from a re-analysis of the deposited data

How the results depend on the processing

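The alternatives were pseudocounts of 1 and 0.01 FPKM, no filter, a filter of 1 FPKM, the deposited scaling, quantile normalization, no intensity trend, the replicate block, limma-voom on the recovered reads, each library left out in turn and, added after the data were seen, replicates 2 and 3 of each group only. Sod2 kept its direction and its call under all 16, with log2 fold changes of 3.42 to 3.51 when 1 library was left out. Sod1 passed no threshold, ranged from 0.0064 to 0.11 when 1 library was left out, and was −0.0019 with replicates 2 and 3 only, below 0 by far less than its standard error of 0.08. Cat was under an adjusted p of 0.05 in 5 of 16, namely at 0.34 with the deposited scaling, 0.29 with limma-voom, 0.28 with the replicate block (adjusted p = 0.020), 0.22 with replicates 2 and 3 only and 0.35 without IL-1β replicate 3 (adjusted p = 0.043). It ranged from 0.18 to 0.35 when 1 library was left out, and the cause was not tested.

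The replicate block changed no other call among these genes and gave 1080 called genes in place of 1078. The total was 697 with a pseudocount of 1 FPKM, with 231 lower genes in place of 412, and 1042 to 1111 when 1 library was left out (622 to 679 higher and 396 to 432 lower). The differences in log2 ratio were 3.37 to 3.47 for Sod2 over Sod1, 3.12 to 3.25 for Sod2 over Cat and −0.31 to −0.13 for Sod1 over Cat when 1 library was left out. The paired form of each gave the same difference as the unpaired one. Its exact two-sided sign-flip p was 0.25 for each ratio, the smallest that 3 pairs can give, so this test could not decide. Counting error was below the spread between libraries for all 3 genes in both groups, so the number of libraries, more than depth, limits these values.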

Other observations

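By the FPKM values as deposited, the 3 genes did not have their highest level in the same library of a group. In both groups the library numbered 1 held the highest Cat level, 26.8 FPKM in the control group and 37.0 FPKM with IL-1β. It held the highest Sod2 level in the IL-1β group (536 FPKM), whereas in the control group Sod2 was highest in library 2 (46.2 FPKM), as was Sod1 (182 FPKM). With IL-1β, Sod1 was highest in library 3 (183 FPKM). After the scaling between libraries, however, IL-1β library 1 held the highest level of all 3 genes. For Sod1 that level was 180.3 FPKM, against 177.3 FPKM in IL-1β library 3. In the control group the highest scaled Sod2 level was in library 1, at 47.3 FPKM against 46.9 FPKM in library 2. The relative spread of Cat was 4.81% of the mean in the control group and 12.1% with IL-1β (n = 3 each), whereas that of Sod1 was 8.55% and 3.83%. A difference in spread was not tested.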
